A study of Mus musculus with 4 samples.

Results

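The genes described here encode the major histocompatibility complex (MHC) and the proteins that load and regulate it, measured in NIH3T3 cells that express EGFR in its wild-type form or with a deletion. A probe was taken if its gene name on the array began with H2- or was B2m, Tap1, Tap2, Tapbp, Tapbpl, Erap1, Nlrc5, Ciita, Cd74 or Cd1d1. The rule itself uses no measured value, but its members were chosen with earlier results of these data known. It found 50 of the 34821 gene names of the array, read by 67 of its 55681 probes. NIH3T3 is a line of mouse embryo fibroblasts, and EGFR is the receptor of epidermal growth factor, whose deletion mutants are known in lung cancer. Each group had 2 arrays of total RNA from untreated cells at steady state, labelled with Cy3 after low-input amplification. Which residues the mutant lacks, from which species the receptor came and whether the cells were pools or clones are not in the labels, and no array of cells without an introduced receptor was analysed here. The repeats are described as separate preparations of labelled material, not as separate cultures, so the p-values below rest on the spread between repeats that may be technical.

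MHC class I molecules are carried by nearly all nucleated cells and present peptides from the cytosol to CD8+ T cells. Their heavy chain pairs with beta-2 microglobulin (B2m). The peptides are made by the proteasome, pumped into the endoplasmic reticulum by the transporter Tap1-Tap2, and loaded with the help of tapasin (Tapbp). Class II molecules belong mainly to professional antigen-presenting cells, where the invariant chain (Cd74) guides them and H2-DM exchanges their peptide. In fibroblasts class I is present at rest and both pathways are known to be raised by interferon gamma, through Nlrc5 for class I and Ciita for class II.

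Between 42.9% and 46.9% of the array's probes lay well above background on an array, and no spot of the 67 probes was saturated. All 4 arrays were on 1 slide and 1 scan, with the wild-type arrays in one column of the slide and the mutant arrays in the next, so column and group cannot be told apart. Signals are given as relative signal, which is the background-subtracted intensity divided by the array's 75th percentile, so that a probe at that percentile has a value of 1. Relative signals are compared between arrays for the same probe and not between probes. The exception is the sums over a list given below, in which the brightest probes weigh most. The fibroblast markers Col1a1, Col1a2, Col3a1, Pdgfra, Pdgfrb, Vim, Thy1, Fn1 and S100a4 were all well above background. By the test given below, 7 of the 9 were lower in the mutant cells, against 23.4% of all tested genes by their brightest probe. H2-K1 and H2-D1, the genes that mark the group of genes described here, were well above background on all 4 arrays.

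A probe was tested if both arrays of one group or the other showed it well above background, which held for 31 of the 67 probes (46.3%), against 45.2% of all probes. The 31 probes stand for 27 gene names, and 29 of them were well above background on all 4 arrays. The other 36 probes, for 23 gene names, were not tested. Of these, 33 were well above background on no array. In limma's fit across all 25162 tested probes, with Benjamini-Hochberg adjustment and a threshold of 0.05, 28 of the 31 probes differed between the groups (90.3%). Over all tested probes the share was 56.7%, with 32.6% higher and 24.1% lower in the mutant cells. As the members were chosen with earlier results known, the difference between these shares is no test of the set. Among the 28, 14 were higher and 14 were lower in the mutant cells. The count of lower probes was 8 without wild-type replicate 1 and 9 without wild-type replicate 2. With no background filter 17 probes passed, and the calls lost were those of B2m, H2-M2, H2-M3, H2-M5, H2-Q4, H2-T10, H2-T23, H2-Ke6, Cd74 and 1 of the 2 probes each of H2-K1 and H2-Q2. The median difference (mutant minus wild type) was -0.08 on the log2 scale for the 31 probes and 0.05 for all tested probes. The 2 mutant arrays lay entirely above or below the 2 wild-type arrays for 29 of the 31 probes, against 81.1% of all tested probes. None of the 14 higher probes reached 2-fold. The 4 fitted at 2-fold or more lower were H2-DMa, Tap1, H2-M5 and Cd74, against 13.8% of all tested probes that passed the test and changed at least 2-fold in either direction. Of these 4, H2-M5 and Cd74 were well above background in wild-type cells only, and their measured bounds were under 2-fold.

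**Figure D1:**
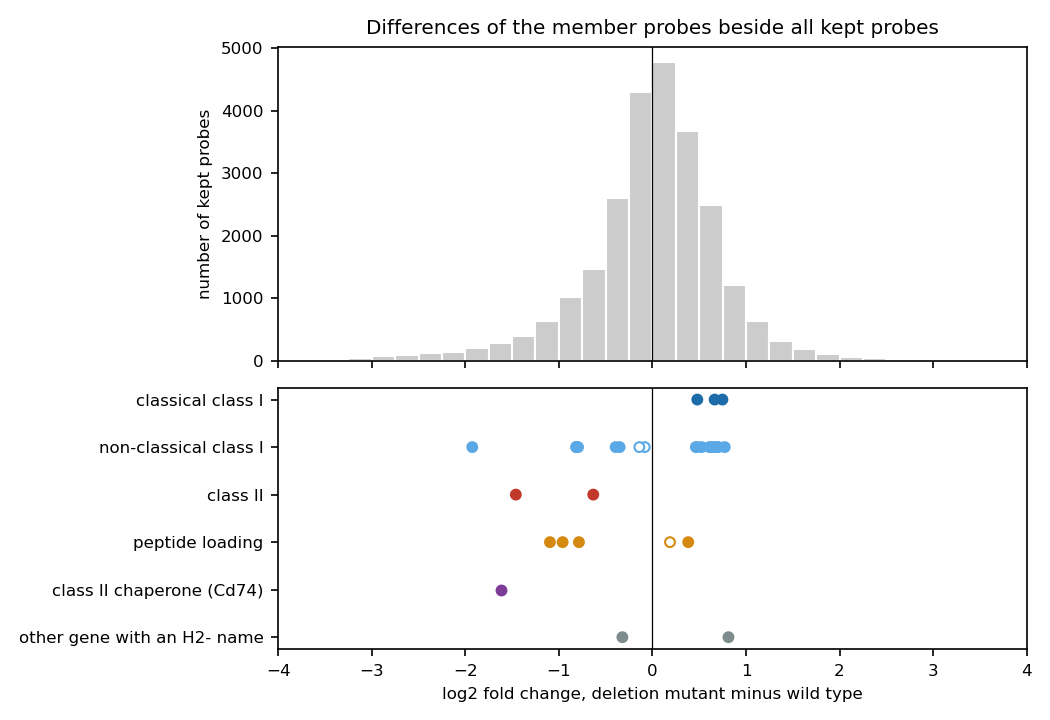
The upper panel counts all tested probes by log2 fold change (deletion mutant minus wild type, bins of 0.25; 106 probes beyond 4 in either direction are not drawn), and the lower panel places the 31 tested MHC and antigen presentation probes by class, with open points for the 3 that did not pass the test. Classical class I lies to the right of 0, class II and Cd74 to the left, and non-classical class I on both sides.

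Both classical class I heavy chains, which present peptides to CD8+ T cells, were higher in the mutant cells. H2-D1 had relative signals of 17.6 and 17.8 on the wild-type arrays and of 29.9 and 29.5 on the mutant arrays. Its groups were far apart compared with the repeats, with a log2 fold change of 0.75 ± 0.06 (SE, here and below), or 1.68-fold, and an adjusted p of 0.00169. H2-K1 was read by 2 probes. The brighter gave 10.7 and 10.7 in wild-type cells and 15.0 and 14.8 in mutant cells, and the dimmer gave 5.78 and 5.71 against 8.86 and 9.37. Neither probe's groups overlapped. The log2 fold changes were 0.48 ± 0.06 (adjusted p = 0.00425) and 0.67 ± 0.06 (adjusted p = 0.00261), and the first was lost with no background filter (adjusted p = 0.0606). The array held no probe under the names H2-L or H2-L1.

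The stretches before the RefSeq starts of H2-K1 and H2-D1 are shown because these 2 genes rose together. They are compared below with the stretch between the starts of Tap1 and Psmb9, which fell together. Positions and strands are those of RefSeq on GRCm38.p6, and the bases are those of that reference build. Whether the NIH3T3 cells carry the same bases was not tested. All 3 stretches end at the base before a transcription start. Capitals mark 2 patterns searched on both strands: GAANNGAAA, the core of the element through which interferon acts, and the consensus of the NF-kappaB site. The NF-kappaB capitals in H2-K1 and H2-D1 are 2 matches that overlap each other.
H2-K1, chr17:34000348-34000547, minus strand: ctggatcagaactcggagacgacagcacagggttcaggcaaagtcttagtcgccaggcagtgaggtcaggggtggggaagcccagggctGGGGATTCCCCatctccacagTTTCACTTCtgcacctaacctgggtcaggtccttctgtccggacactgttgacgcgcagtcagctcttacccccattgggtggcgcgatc
H2-D1, chr17:35262894-35263093, plus strand: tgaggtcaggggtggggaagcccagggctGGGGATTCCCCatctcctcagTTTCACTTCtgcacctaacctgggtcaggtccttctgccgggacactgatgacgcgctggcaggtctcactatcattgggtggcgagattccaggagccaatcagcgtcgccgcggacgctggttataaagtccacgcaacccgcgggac
Tap1 and Psmb9, chr17:34187331-34187555, plus strand: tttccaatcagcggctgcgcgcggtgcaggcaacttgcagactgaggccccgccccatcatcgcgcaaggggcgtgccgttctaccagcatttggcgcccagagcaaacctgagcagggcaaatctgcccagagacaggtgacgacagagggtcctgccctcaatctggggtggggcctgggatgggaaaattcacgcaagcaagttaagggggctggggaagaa
H2-K1 and H2-D1 hold the same block of both patterns, and the stretch between Tap1 and Psmb9 holds neither. Over 32851 promoter windows of 250 bases, 6.31% hold GAANNGAAA and 7.25% hold the NF-kappaB consensus. A window was at hand for 8 of the 11 member genes that rose and for 8 of the 13 that fell. GAANNGAAA was found in 4 of the 8 that rose (H2-D1, H2-K1, H2-M2 and H2-Q7) and in 2 of the 8 that fell (H2-M3 and H2-Q4). The NF-kappaB consensus was found in the same genes and in B2m, which rose. Both patterns thus occur in genes that rose and in H2-M3 and H2-Q4, which fell. Also searched, but not marked, were CCAAT (33.8% of windows) and TGACG (17.8%), and the stretch between Tap1 and Psmb9 holds both of these. CCAAT was found in 7 of the 8 that rose and in 7 of the 8 that fell. TGACG was found in 6 of the 8 that rose and in 3 of the 8 that fell. A match of letters is a description of the window and no sign of a bound factor.

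Of the 6 genes for the light chain and for peptide transport, loading and trimming, 1 rose (B2m), 3 fell (Tap1, Tap2 and Tapbp), 1 did not pass (Tapbpl) and 1 was not tested (Erap1). B2m, the light chain that pairs with class I heavy chains, had relative signals of 58.4 and 61.2 in wild-type cells and of 82.0 and 74.0 in mutant cells. The groups did not overlap, and the log2 fold change was 0.38 ± 0.08 (adjusted p = 0.0191). This call was not kept under every choice: without wild-type replicate 1, wild-type replicate 2 or mutant replicate 1 the adjusted p was 0.0949, 0.0694 and 0.0604, and it was 0.198 after quantile normalization and 0.0988 with scaling to the probes detected on all 4 arrays, with B2m higher in the mutant cells each time.

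Tap1 and Tap2, the 2 subunits of the peptide transporter, and Tapbp, the chaperone that holds an empty class I molecule at the transporter, were all lower. Tap1 fell from 0.488 and 0.496 to 0.225 and 0.236 in relative signal, a log2 fold change of -1.10 ± 0.06 (adjusted p = 0.00101). Tap2 went from 8.91 and 9.78 to 5.24 and 5.59, a log2 fold change of -0.79 ± 0.08 (adjusted p = 0.00301). Tapbp went from 14.4 and 14.4 to 7.46 and 7.36, a log2 fold change of -0.96 ± 0.06 (adjusted p = 0.00109). In all 3 genes both mutant arrays lay below both wild-type arrays, by far more than the repeats differed. Tapbpl, a second editor of class I peptides, read 0.737 and 0.827 in wild-type cells and 0.881 and 0.898 in mutant cells, which did not pass the test (adjusted p = 0.121; 95% interval of the log2 fold change -0.04 to 0.41). It passed after median scaling (adjusted p = 0.0173). Erap1, the aminopeptidase that trims peptides in the endoplasmic reticulum, was well above background on no array.

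The gap between the heavy chains and the loading genes can be taken within each array, where scaling an array by a constant cannot move it. Quantile normalization and normexp background correction can. H2-K1 (brighter probe) and Tap1 had log2 fold changes of 0.24 and -0.96 under the first and of 0.45 and -0.635 under the second. H2-D1 and Tapbp had 0.51 and -1.17, and 0.74 and -0.92. The gaps below are those of the main scaling. The log2 fold change of H2-D1 exceeded that of Tapbp by 1.71, with a range of 1.70 to 1.72 over the 4 pairings of a mutant with a wild-type array. H2-K1 (brighter probe) exceeded Tap1 by 1.57 (range 1.52 to 1.63) and Tapbp by 1.44 (range 1.44 to 1.44). B2m exceeded Tap2 by 1.17 (range 1.01 to 1.32). These gaps are given as values and were not tested.

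**Figure D2:**
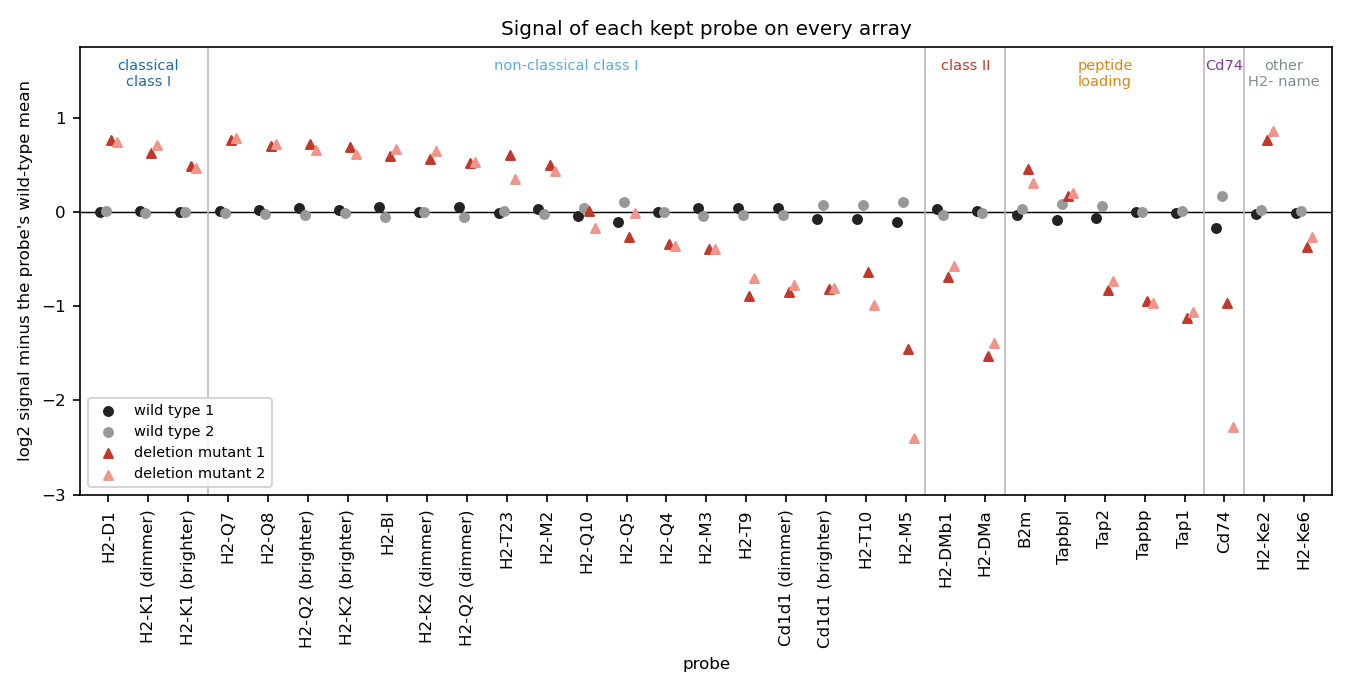
Each of the 31 tested probes (x axis, by class) is drawn on every array as its log2 signal minus the mean of the 2 wild-type arrays, with circles for wild type and triangles for the deletion mutant. The triangles of H2-D1, H2-K1 and B2m lie above the circles, those of Tap1, Tap2, Tapbp and H2-DMa lie below them, and the 2 mutant arrays spread most widely for H2-M5 and Cd74.

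The non-classical class I genes moved in both directions. These relatives of the classical heavy chains have narrower tissue ranges or special ligands. Of 27 gene names, 15 had a tested probe, and by the probes of each gene 7 rose, 6 fell and 2 did not pass. By probe, 9 of 18 were higher and 7 lower. The median log2 difference was 0.19 for these 18 probes.

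The risers were H2-Q7, H2-Q8, H2-Q2, H2-K2, H2-Bl, H2-T23 and H2-M2, by 1.38-fold (H2-M2) to 1.71-fold (H2-Q7). RefSeq lists H2-K2 as a transcribed pseudogene, and the probes of H2-Bl and H2-M2 matched no RefSeq accession. A second H2-M2 probe was well above background on no array, as were second probes of H2-Q10 and H2-DMb1. H2-Q7, part of the Qa-2 antigen, had relative signals of 11.2 and 11 in wild-type cells and of 18.8 and 19.1 in mutant cells (log2 fold change 0.77 ± 0.06, adjusted p = 0.0016). The accessions listed for its probe name both H2-Q7 and H2-Q9, and those of the H2-Q8 probe name H2-Q6 and H2-Q8, so each of these readings can belong to either gene. The 2 probes of H2-Q2 gave log2 fold changes of 0.69 and 0.53, and those of H2-K2, which overlap on mm9, gave 0.65 and 0.61. The dimmer H2-Q2 probe (0.53) lies at chr17:35460007-35460066 on mm9. That is closer to the untested H2-Q1 probe (35461859-35461918) than to the brighter H2-Q2 probe (35482113-35482172). The accessions listed for the dimmer probe name H2-Q2 alone, so which gene it reads is not settled. H2-T23, the Qa-1 molecule that shows leader peptides of other class I chains to receptors of natural killer cells, read 9.07 and 9.20 against 13.9 and 11.7. Its mutant arrays differed more than those of H2-Q7 but both lay above wild type, with a log2 fold change of 0.48 ± 0.11 and an adjusted p of 0.0218. That p was 0.0997 without wild-type replicate 1, 0.0926 without wild-type replicate 2 and 0.0772 with scaling to the probes detected on all 4 arrays.

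The genes that fell were Cd1d1, H2-T9, H2-T10, H2-M3, H2-Q4 and H2-M5. Cd1d1, which presents lipids to natural killer T cells, fell alike on both of its probes, with log2 fold changes of -0.81 ± 0.08 and -0.81 ± 0.07 (adjusted p = 0.00253 and 0.00201). Its brighter probe read 3.68 and 4.07 in wild-type cells and 2.19 and 2.21 in mutant cells. H2-T9 and H2-T10 had log2 fold changes of -0.79 and -0.82. RefSeq lists H2-T10 as a transcribed pseudogene, and the accessions listed for the H2-T9 probe name H2-T22. The H2-T10 call was lost without wild-type replicate 1 (adjusted p = 0.0501) or wild-type replicate 2 (adjusted p = 0.0679). H2-M3, which presents formylated peptides of bacteria, fell by 0.39 on the log2 scale, with an adjusted p of 0.00974 that became 0.054 without wild-type replicate 1 and 0.0628 after median scaling.

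H2-Q4 moved against its neighbours of the Q region that rose. Its relative signal was 64.7 and 64.4 in wild-type cells and 51.1 and 50.2 in mutant cells. The groups did not overlap, and the log2 fold change was -0.35 ± 0.06 (adjusted p = 0.00978). Without wild-type replicate 1 or 2 the adjusted p was 0.056 and 0.0537, and it was 0.0734 after median scaling. H2-M5 read 0.125 and 0.144 in wild-type cells and 0.0489 and 0.0254 in mutant cells, where it was not well above background. It was at least 1.42-fold lower there, counted from the wild-type mean to the lowest signal that an array told from background, with an adjusted p of 0.0121 in the fit. The accession of this probe matched nothing in RefSeq, and a second H2-M5 probe, which did match, was well above background on no array. The call was lost without wild-type replicate 1 (adjusted p = 0.0593) or 2 (adjusted p = 0.0713). H2-Q10, in the mouse mainly a secreted product of the liver, and H2-Q5, in RefSeq a transcribed pseudogene, did not pass. Their log2 fold changes were -0.08 (95% interval -0.33 to 0.16) and -0.14 (95% interval -0.50 to 0.22). The other 12 names had no tested probe: H2-Q1, H2-T3, H2-T18, H2-T24, H2-M1, H2-M9, H2-M10.1, H2-M10.2, H2-M10.3, H2-M10.4, H2-M10.6 and H2-M11.

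Most class II genes were not measurable in these fibroblasts. Of 10 class II gene names, 8 had no tested probe, among them the alpha and beta chains H2-Aa, H2-Ab1, H2-Eb1 and H2-Eb2, along with H2-Ea-ps, H2-Oa, H2-Ob and H2-DMb2. The 2 that were tested encode H2-DM, which frees class II of its place-holding peptide, and both were lower in the mutant cells. H2-DMa went from relative signals of 0.904 and 0.891 to 0.311 and 0.342. This was a log2 fold change of -1.46 ± 0.07 (2.75-fold lower, adjusted p = 0.000843), and for no other probe of the 29 above background on every array was the fall as large. H2-DMb1 fell 1.55-fold (log2 fold change -0.63 ± 0.07, adjusted p = 0.00402).

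Cd74, the invariant chain, was well above background in wild-type cells only. Its relative signals were 0.0900 and 0.114 there and 0.0519 and 0.0208 in mutant cells. Counted as for H2-M5 it was at least 1.07-fold lower, a bound that rests on the dimmest detected probes, while an Nlrc5 probe at 0.106 on a mutant array was not told from background. The adjusted p in the fit was 0.0475, and it was 0.130 and 0.182 without wild-type replicate 1 and 2. With the replicate number as a block the adjusted p was 0.0815. Nlrc5 and Ciita, the regulators of the class I and class II genes, were not tested. The brighter Nlrc5 probe read 0.135 and 0.0912 in wild-type cells and 0.0522 and 0.106 in mutant cells, and was well above background on wild-type replicate 1 alone. Its second probe reached that level on no array. Ciita was well above background on wild-type replicate 2 alone, so neither regulator gives a direction.

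A pair of genes in the set carry an H2- name without an MHC product. H2-Ke2, now called Pfdn6, encodes a subunit of the chaperone prefoldin and was 1.76-fold higher (log2 fold change 0.81 ± 0.07, adjusted p = 0.00201). H2-Ke6, a steroid dehydrogenase, was 1.25-fold lower, with an adjusted p of 0.0191 that became 0.0793 and 0.0909 without wild-type replicate 1 and 2, 0.0732 without mutant replicate 1 and 0.177 after median scaling.

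Along the MHC, higher and lower probes stood in runs of neighbours, with exceptions, and no test of the order was made. Only tested members were lined up, so other genes between them are left out. H2-K2, H2-K1 and H2-Q2 each stand in the order with 2 neighbouring probes, which lengthens the higher runs. Of the 31 tested probes, 25 lie on chromosome 17 of mm9. Between H2-K1 and H2-D1, which both rose, lay 5 tested member probes in a row that all fell: H2-Ke6, H2-DMa, H2-DMb1, Tap1 and Tap2. Tapbp, at the centromeric end of the set, fell beside H2-Ke2, which rose. In the Q region H2-Q4, which fell, and H2-Q5, which did not pass, lay between H2-Q2 and H2-Q8, which rose. In the T region H2-T23 rose beside H2-T9 and H2-T10, which fell.

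**Figure D3:**
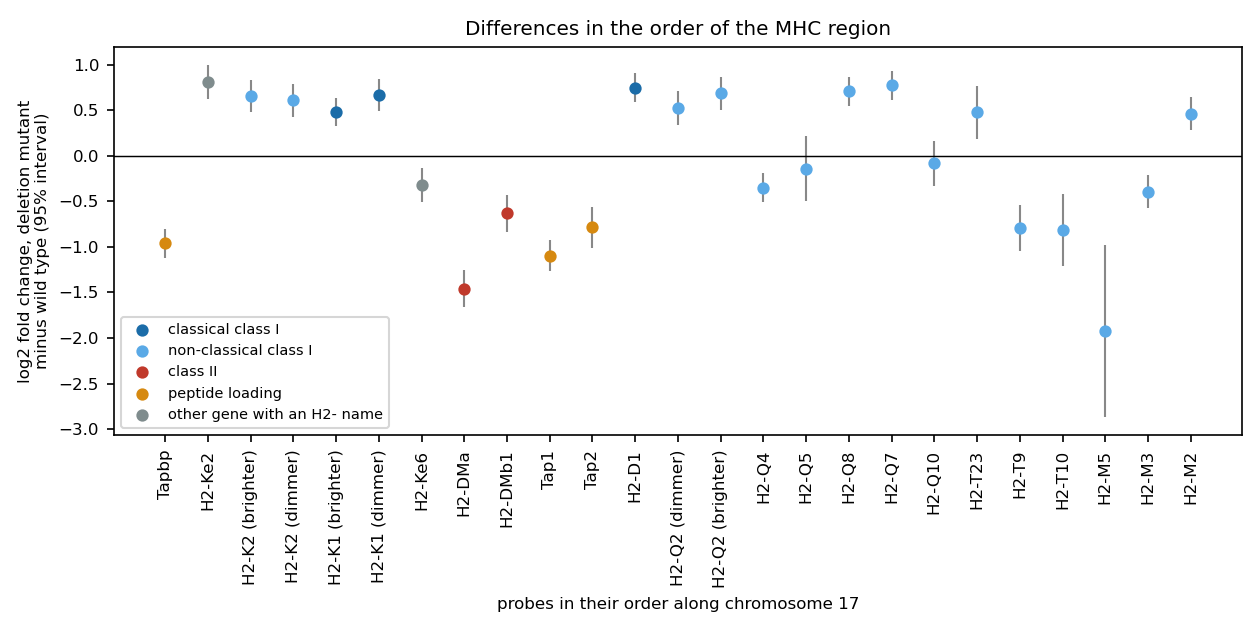
The log2 fold change (deletion mutant minus wild type) with its 95% interval is drawn for the 25 tested probes of chromosome 17 in their order along it, coloured by class. Higher and lower probes stand in runs of neighbours, some of them probes of the same gene, with 5 lower probes in a row between H2-K1 and H2-D1.

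Class I genes are near copies of one another, so the 60-base probes were compared for shared sequence. No 2 of the 67 probes were identical. Among the 465 pairs of tested probes, the median longest shared run was 6 bases and 9 pairs shared a run of 14 or more. In 8 of the 9 pairs both probes were higher in the mutant cells, in 1 pair (H2-Q10 and H2-Q2, 19 bases) H2-Q10 did not pass the test, and in no pair did both fall or 1 rise and 1 fall. Thus 8 of the 14 higher probes shared such a run with another tested member and none of the 14 lower probes did. These totals are unlike, as the lower probes include more genes that are not class I heavy chains, such as Tap1 and H2-DMa. Among class I heavy chain probes alone, 8 of the 12 higher and none of the 7 lower shared such a run. The 7 lower include both Cd1d1 probes, which lie on chromosome 3. The 8 pairs include the 2 H2-K2 probes with each other (26 bases), whose positions on mm9 overlap. The longest runs are shown in capitals within 30 bases of each probe, as the array files give them. The positions are those of the probes on mm9.
H2-K1 (dimmer probe), chr17:34133984-34134043, minus strand, bases 14 to 43: cTGGAGCTGTGGTGGCTTTTGTGATGAAGA
H2-T23, chr17:36167338-36167574, minus strand, bases 8 to 37: tTGGAGCTGTGGTGGCTTTTGTGATGAAGA
H2-K2 (dimmer probe), chr17:34111941-34112000, minus strand, bases 27 to 56: caTCTCCTGTGACATCCAGAGCCCTCAGTT
H2-Q7, chr17:35580315-35580374, plus strand, bases 30 to 59: tcTCTCCTGTGACATCCAGAGCCCTCAGTT
The first pair share 29 bases and had log2 fold changes of 0.67 and 0.48. The second pair share 28 bases and had 0.61 and 0.77. How far such probes read one another's transcripts was not tested, so these readings may not be independent of each other.

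For comparison, the middle 30 bases of 4 probes that share no run of 14 bases with another tested member are given below, 1 that rose and 3 that fell.
H2-D1, chr17:35403886-35403945, plus strand, bases 16 to 45: aacattgtctgatgttccctgtgagcttgg
H2-Q4, chr17:35521294-35521353, plus strand, bases 16 to 45: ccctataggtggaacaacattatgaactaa
Tapbp, chr17:34065963-34066022, plus strand, bases 16 to 45: cttcatagcatcttaagattctagagacct
Tap1, chr17:34330854-34330913, plus strand, bases 16 to 45: ttcgagaaaatattgcgtatggcctgaacc
The brighter H2-K1 probe, H2-Bl and H2-M2 also rose without such a run. A lack of shared runs between probes does not show that a probe fails to match another gene's transcript. H2-Q8 shared 54 bases with a probe outside the set that carries only a transcript identifier. MHC genes vary between mouse strains, and how well each probe fits the alleles of NIH3T3 was not tested.

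**Figure D4:**
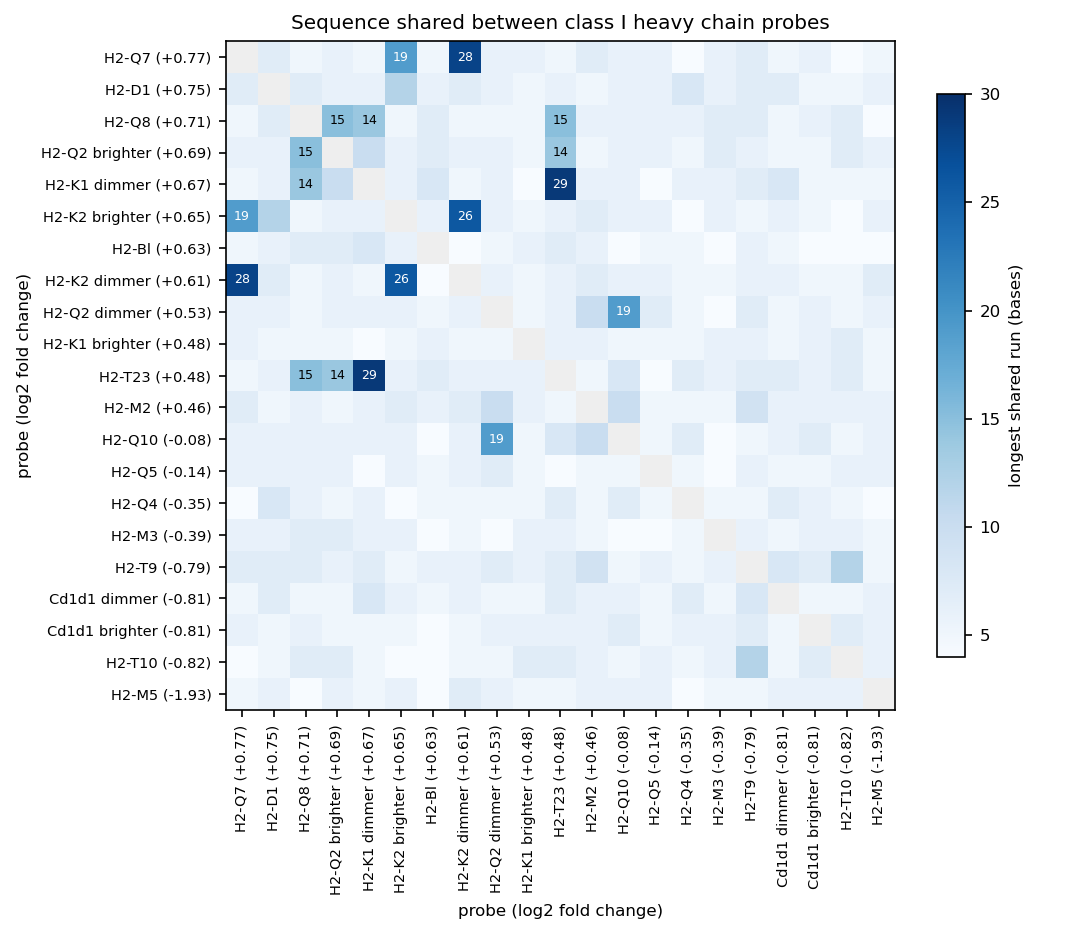
The longest run of identical bases (colour scale, in bases) is drawn for each pair of the 21 tested class I heavy chain probes, ordered by log2 fold change (in brackets), with the number written where it is 14 or more. The numbered squares lie among the higher probes, apart from the square of H2-Q10 and H2-Q2.

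Other genes of the presentation pathway were counted from a list of 40, by the brightest probe of each. Of 34 tested, 8 rose, 10 fell and the median log2 difference was -0.05. By the same rule 57.2% of all tested genes passed, with 33.7% higher and 23.4% lower. The largest rises were those of Ctsl, the lysosomal protease cathepsin L (log2 fold change 1.31 ± 0.06, adjusted p = 0.000681), Ifngr2, a chain of the interferon gamma receptor (1.11 ± 0.06, adjusted p = 0.000922), and Psme3, a proteasome activator (0.67 ± 0.07, adjusted p = 0.00351). The largest falls were those of Psmb9, an immunoproteasome subunit that neighbours Tap1 (-1.49 ± 0.08, adjusted p = 0.000865), March1, a ubiquitin ligase that removes class II from the surface (-0.88 ± 0.07, adjusted p = 0.00198), and Lnpep, a peptide-trimming enzyme (-0.69 ± 0.08, adjusted p = 0.00442). Psmb9 read 0.729 and 0.724 in wild-type cells and 0.246 and 0.273 in mutant cells, without overlap. Psmb8, Ctss, Rfx5, Cd274 and Pdcd1lg2 were among the genes with no tested probe. Without wild-type replicate 1, 11 of the list passed in place of 18.

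Genes known to be induced by interferon were mostly lower in the mutant cells. Of 32 on the array, 19 were tested, 14 fell and 1 rose, with a median log2 difference of -0.89. Over all tested genes 57.2% passed and 23.4% were lower. This list, like that of the other presentation genes, was chosen with earlier results of these data known. Ifi44 and Gbp3 were well above background in wild-type cells only, at least 3.15-fold and 2.87-fold lower in mutant cells (adjusted p = 0.000647 and 0.0102). Gbp2, a guanylate-binding protein, read 2.10 and 1.72 against 0.361 and 0.288 (log2 fold change -2.56 ± 0.16, adjusted p = 0.0012). Ifit2 was the 1 that rose (log2 fold change 0.41 ± 0.09, adjusted p = 0.0223). The summed relative signal of the tested genes was 49.9 and 50.2 in wild-type cells and 29.9 and 29.5 in mutant cells. Ifitm3 made up a large part of this sum, with 23.4 and 23.8 in wild-type cells and 14.1 and 13.6 in mutant cells. This list thus moved the way of Tap1, Tap2, Tapbp and H2-DMa and against H2-K1, H2-D1 and B2m. Its part in their differences was not tested.

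Of 11 leukocyte and antigen-presenting cell markers on the array, 5 were tested and only Itgam passed (log2 fold change -0.92 ± 0.07, adjusted p = 0.00154). The summed relative signal of the 5 was 37.3 and 39.4 in wild-type cells and 22.3 and 22.3 in mutant cells. Most of this sum was Itgam, with 33.0 and 35.5 in wild-type cells and 18.2 and 18.1 in mutant cells, so its fall is that of 1 probe. Ptprc, the marker that defines leukocytes, was not well above background, nor were Itgax, Emr1, Lyz2 and Ly86. Of 5 endothelial markers 2 were tested and Pecam1 was lower (log2 fold change -0.40). Of 5 epithelial markers 2 were tested, and Krt8 was at least 2.79-fold higher and Krt14 lower (log2 fold change -0.42). Over all tested genes, by their brightest probe, 57.2% passed, with 33.7% higher and 23.4% lower. The part of these markers in the results was not tested. In a bulk sample, fewer cells of a type and less RNA per cell cannot be told apart.

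Other scalings of whole arrays by a constant moved all probes up or down together. Scaling to the median raised the median difference of all tested probes by 0.18 on the log2 scale, and the share of higher among all called probes from 57.5% to 72.1%. Scaling to the 75th percentile of the probes detected on all 4 arrays changed them by -0.19 and to 37.7%. No probe that passed the test changed sign under any of the 16 alternatives that could be run for it, and 17 of the 28 passed under all of them. These 17 include H2-D1, the dimmer H2-K1 probe, H2-Q7, Tap1, Tap2, Tapbp, H2-DMa, H2-DMb1 and both Cd1d1 probes.

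**Figure D5:**
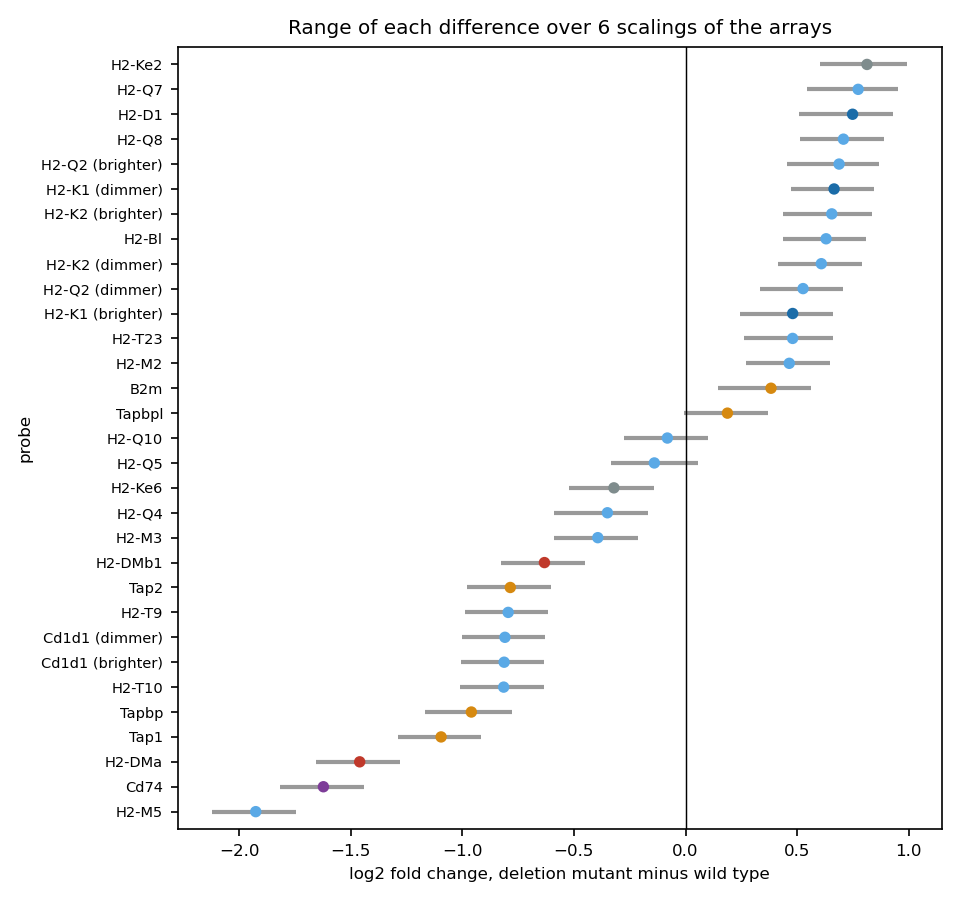
Points give the log2 fold change (deletion mutant minus wild type) of each tested probe as reported, coloured by class as in the plot by gene order with Cd74 in purple. Grey lines give its range over 6 scalings of the arrays, quantile normalization among them. Only the lines of Tapbpl, H2-Q10 and H2-Q5, none of which passed the test, cross 0.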

How the data were processed

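RNA of NIH3T3 cells was measured on 4 Agilent 1-colour arrays, 2 with wild-type and 2 with deletion-mutant EGFR. Per the file headers, the protocol GE1_1010_Sep10 of Feature Extraction 10.10.1.1 gave the processed signal, an intensity after background subtraction, with probe positions on mm9. Mean and background intensity stand beside it, per the file headers, with flags for uneven, saturated and well-above-background spots. The authors also deposited log2 values, which equalled log2 of the processed signal plus a constant per array, each with a median of 4.44, and served as an alternative. Array replicate numbers come from the labels.

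Uneven and outlier spots were left out (11 probes lost every spot on an array), and spots of a probe were averaged. Log2 processed signal minus the array's 75th percentile was fitted with limma 3.58.1 (R 4.3.3; lmFit, eBayes) for 25162 probes well above background on both arrays of a group. P-values were adjusted by Benjamini-Hochberg over all of them. Where one group was below background, the fold is a bound. Sequences were compared with Python 3.11.15. The fit was tested on simulated data. The number of arrays limits the precision.

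All member genes with a tested probe are named. Values on each array are given for those that changed at least 2-fold, were detected in 1 group or are H2-K1, H2-D1, B2m, Tap1, Tap2, Tapbp or Nlrc5, and for a few others chosen after their values were seen (Tapbpl, H2-Q7, H2-T23, Cd1d1, H2-Q4). Up to 3 rises and 3 falls are named from each of 2 further lists, with Psmb9 in full. The members and lists were chosen with earlier results of these data known. Of the 67 probe accessions, 56 matched RefSeq.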

Additional observations from a re-analysis of the deposited data

How the results depend on the processing

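Of the 28 probes that passed, between 17 and 28 passed under the 16 alternatives. Without the background filter, which tests 55670 probes, 17 passed (9 higher and 8 lower), and of the other presentation genes 8 passed in place of 18. Leaving out 1 array at a time gave 20 to 28 probes, with 12 to 14 higher and 8 to 14 lower, and 11 to 15 other presentation genes. The lower count fell to 8 without wild-type replicate 1 and to 9 without wild-type replicate 2. In these fits the lone array of a group is assumed to vary like the other group. Quantile normalization gave 25 probes, scaling to the median, the authors' log2 values and scaling to the probes detected on all 4 arrays gave 26 each, and scaling to the spike-ins gave 27. Normexp background correction and intensity-dependent, robust variances gave 28 each. Requiring detection on all 4 arrays left 29 probes, of which 26 passed, and with 1 value for each of the 27 genes (the brightest probe or the mean) 24 passed. Of the other presentation genes, 24 passed after quantile normalization, 23 with intensity-dependent, robust variances and 22 each with scaling to the median, the authors' values and scaling to the probes detected on all 4 arrays. The cause of these differences was not tested. Some of the settings also changed the number of probes or arrays fitted. Same-numbered arrays did not deviate together (correlation 0.04). With 2 arrays per group this cannot tell whether the numbers pair the samples, and the labels do not say. With the replicate number as a block 27 probes passed (14 higher and 13 lower), and 16 other presentation genes. The block ended the call of Cd74 and of no other member probe. Signal over background limits H2-M5, Cd74, Nlrc5 and Ciita.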
